A study of Mus musculus with 288 samples.

Results

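Cells carrying much Dnmt3b RNA were compared with cells carrying little of it, 24 h after mouse embryonic stem cells left 2i medium. The cells are labelled as the line E14, of strain 129/Ola, and the count table gives their RNA from scNMT-seq, a method that reads RNA, DNA methylation and chromatin accessibility from the same cell. They had been kept in 2i and LIF, in which CHIR99021 inhibits GSK3 and PD0325901 inhibits MEK, and were then moved to serum and LIF. Of the 96 wells under the label D1, taken as 24 h, 50 passed limits of more than 200000 reads, more than 2000 genes with a read and a mitochondrial share under 15%, against 233 of 288 wells under the labels D0, D1 and D2 together. These 50 cells were ranked by Dnmt3b in CPM, the reads of a gene per 1000000 reads of the cell. The 17 highest are called Dnmt3b-high, the 17 lowest Dnmt3b-low and the remaining 16 middle. All 3 groups had the same culture, agents and plate, so they are defined by the ranking alone and are neither sorted populations nor treatments.

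DNA methyltransferases 3A and 3B place methyl groups on CpG sites that carry none, and DNMT3L, which has no catalytic activity, binds and stimulates both. DNMT1 with its recruiting partner UHRF1 copies existing methylation at replication, and the TET enzymes oxidise it. In 2i the de novo enzymes are low and the genome is poorly methylated, and both rise when the inhibitors are withdrawn and cells move from the naive towards the formative state of pluripotency.

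The ranking gene, Dnmt3b, lies on chromosome 2, from 153649411 to 153687730 (GRCm38.p6, RefSeq). The bases just before its annotated start are shown because CpG sites are the substrate of the protein. This stretch is chr2:153649199-153649410 on the plus strand, with each CpG in capitals.
Dnmt3b, bases before the gene start: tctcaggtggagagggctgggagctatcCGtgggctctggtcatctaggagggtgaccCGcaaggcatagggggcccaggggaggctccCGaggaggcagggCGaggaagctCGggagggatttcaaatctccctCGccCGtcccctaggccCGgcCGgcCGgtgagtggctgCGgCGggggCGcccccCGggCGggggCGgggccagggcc
It holds 16 CpG sites in 212 bases. At least as many were found in 18.3% of 32851 RefSeq windows of that length placed in the same way, whose median was 4. Dnmt3a lies on chromosome 12, from 3801559 to 3914443, and Dnmt3l on chromosome 10, from 78042287 to 78063622.

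The groups were chosen by these measured Dnmt3b values, so the values are a description and not a finding. Dnmt3b ran from 440 to 1326 CPM in the Dnmt3b-high cells, with a median of 643, and from 0 to 175 CPM in the Dnmt3b-low cells, with a median of 73.9. The middle cells had a median of 319 CPM. The ranking had no gap at either border. The lowest Dnmt3b-high cell had 439.6 CPM and the cell next to it outside the group had 434.3 CPM, and the highest Dnmt3b-low cell had 175.4 CPM beside 176.0 CPM in the nearest middle cell. At least 1 Dnmt3b read was counted in 16 of the 17 Dnmt3b-low cells.

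Reads per cell did not separate the groups, but detected genes did in part. Total reads ran from 202157 to 40577188 in Dnmt3b-high cells, with a median of 8096508, and from 350065 to 43336922 in Dnmt3b-low cells, with a median of 11129219. After each cell was thinned to 200000 reads, the Dnmt3b-high cells held 7558 to 9081 genes with a read and a median of 8297. Dnmt3b-low cells held 2063 to 8571 genes and a median of 7403. Thus 9 Dnmt3b-low cells, and none of the Dnmt3b-high cells, had fewer than 7500 genes. The 50 most abundant genes took a median of 19.2% of the reads in Dnmt3b-high cells and 24.5% in Dnmt3b-low cells. Transcripts under 1000 bases took a median of 10.8% and 18.3%. Mitochondrial transcripts took a median of 3.26% and 3.36%. The part of detected genes and of short transcripts in the differences below was not tested. Values restricted to cells with at least 7500 genes (17 Dnmt3b-high and 8 Dnmt3b-low cells) are given for many of the lists and genes. Under this restriction most 2-fold differences of list members fell short of 2-fold, as given with several of the lists. That restriction was chosen after the data had been seen.

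Hprt, the purine salvage enzyme that the derivative line E14TG2a lacks, had reads in 17 of 17 cells of each compared group. Its level ran from 50.8 to 494 CPM in Dnmt3b-high cells, with a median of 201, and from 18.7 to 401 CPM in Dnmt3b-low cells, with a median of 173. The ranges overlapped from 50.8 to 401 CPM. Over thinned cells the means were 212 and 156 CPM, a difference of 0.42 in log2(mean CPM + 10). It was above 0 in 21 of 21 alternative settings and came to 0.02 in cells with at least 7500 genes. Both D1 cells without an Hprt read were middle cells. Dnmt3b-high cells numbered 7 in plate columns 1 to 6 and 10 in columns 7 to 12, and Dnmt3b-low cells numbered 9 and 8.

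**Figure D1:**
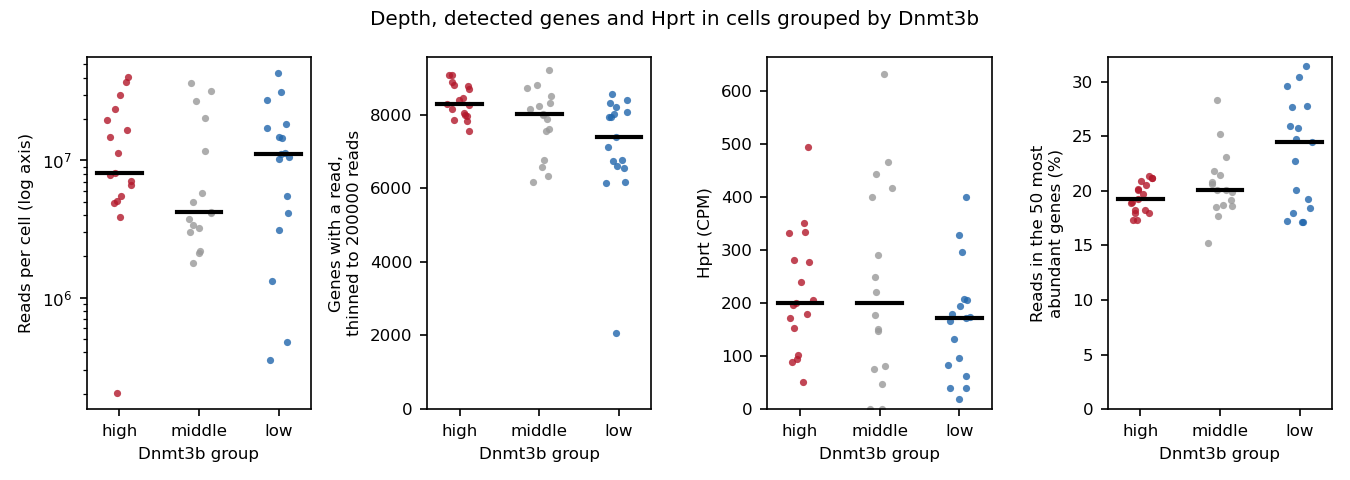
Total reads (log axis), genes with a read after thinning to 200000 reads, Hprt in CPM and the percentage of reads in the 50 most abundant genes, for the Dnmt3b-high (17), middle (16) and Dnmt3b-low (17) cells labelled D1. Each point is a cell and each bar a group median. Reads and Hprt overlap, whereas 9 Dnmt3b-low cells lie below the 7558 genes of the poorest Dnmt3b-high cell.

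Both groups carried the RNA of pluripotent cells. Pou5f1, the gene of the pluripotency factor OCT4, had a median of 670 CPM in Dnmt3b-high cells and 470 CPM in Dnmt3b-low cells, and was read in every cell. Markers of other cell types were low in most lists. The summed trophectoderm, mesoderm and fibroblast lists had medians of 0, 0 and 0 CPM in Dnmt3b-high cells and 5, 0 and 0 CPM in Dnmt3b-low cells. The ectoderm list summed to medians of 35 and 10 CPM, with highest cells of 205 and 295 CPM. No read of the 10 listed 2-cell-like genes was found. The primitive endoderm list summed to medians of 740 and 550 CPM, with mean Sparc of 664 and 585 CPM. Of its 10 genes, 3 (Gata6, Foxa2 and Pdgfra) had no read in the 34 cells and the other 7 had reads.

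All differences below are differences of log2(mean CPM + 10) between 17 Dnmt3b-high and 17 Dnmt3b-low thinned cells. One read is then 5 CPM, and the added 10 CPM shrinks the differences of low genes. With 1 culture, 1 plate and groups drawn from a measured value there was no test, so spread is given over cells and Poisson intervals cover counting error only. Of 6056 genes, 462 (7.63%) were at least 2-fold higher and 352 (5.81%) at least 2-fold lower in the Dnmt3b-high cells. When the medians also had to differ 2-fold, 421 (6.95%) were higher and 118 (1.95%) lower. The median over all 6056 genes was 0.22, and 63.5% were above 0. Scaling by TMM factors brought that median to 0.01 and the counts to 184 higher and 546 lower. With cells of at least 7500 genes only, 165 genes were higher and 83 lower, around a median of 0.02. The number and balance of genes are therefore given with the scaling and cells that set them.

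Dnmt3a, the gene of the other active de novo enzyme, was among the largest differences. Over thinned cells it ran from 95 to 1145 CPM in Dnmt3b-high cells, with a median of 315, and from 0 to 455 CPM in Dnmt3b-low cells, with a median of 50. Middle cells had a median of 192.5 CPM. The means were 425 CPM (95% exact Poisson interval 403 to 447) and 89.4 CPM (79.6 to 100.0), a difference of 2.13 on the log2 scale. The groups overlapped, with 4 Dnmt3b-high cells above every Dnmt3b-low cell and 1 Dnmt3b-low cell above the Dnmt3b-high median. In cells with at least 7500 genes the difference was 1.47. It stayed above 0 in 21 of 21 alternative settings.

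Dnmt3l differed less. Its level over thinned cells ran from 295 to 2005 CPM in Dnmt3b-high cells, with a median of 730, and from 80 to 1435 CPM in Dnmt3b-low cells, with a median of 340. Only 1 Dnmt3b-high cell exceeded every Dnmt3b-low cell, and the middle median was 715 CPM. The means were 867 CPM (836 to 899) and 536 CPM (512 to 562), a difference of 0.68. With cells of at least 7500 genes this difference came to 0.03. Over the 50 cells the Spearman correlation with Dnmt3b was 0.42 for Dnmt3l and 0.59 for Dnmt3a, and over the 37 of them with at least 7500 genes it was 0.05 and 0.43. Detected genes themselves went from 0.49 to 0.07 in the same cells. The points of each correlation share 1 plate and differ in depth before thinning.

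**Figure D2:**
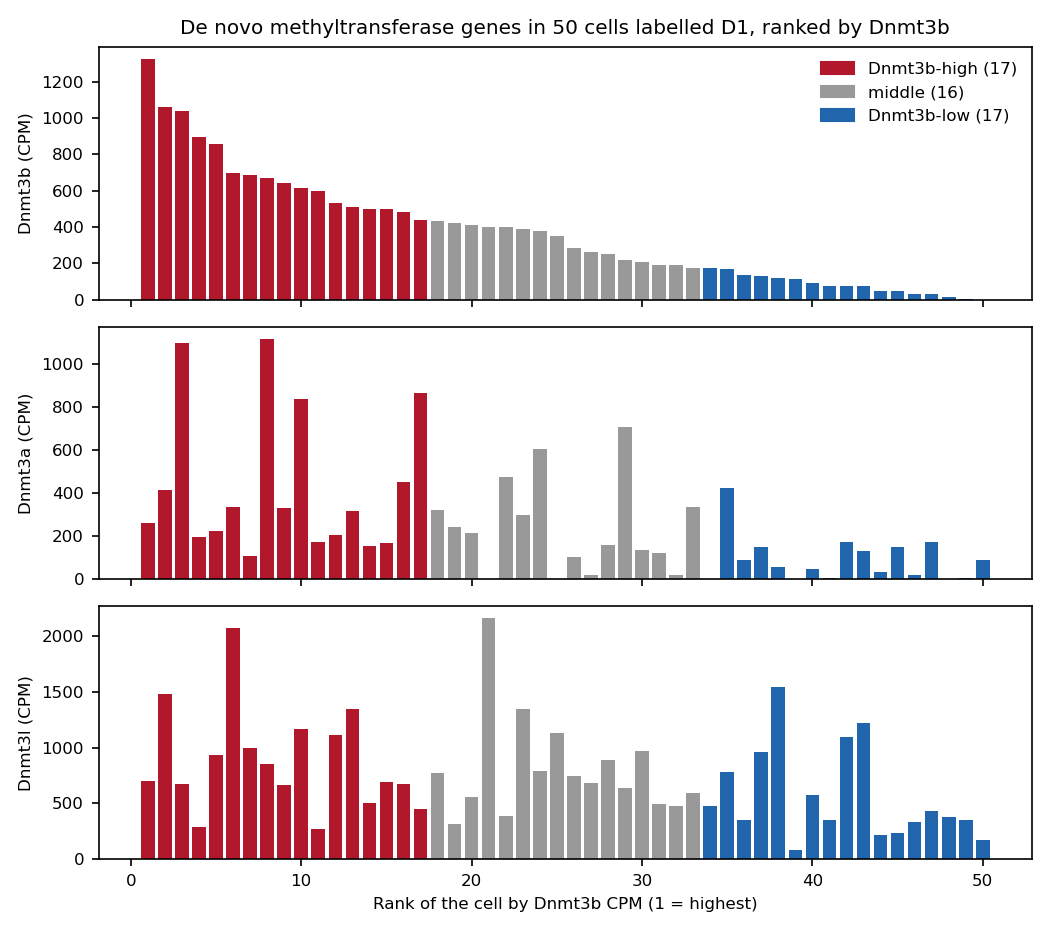
Dnmt3b, Dnmt3a and Dnmt3l in CPM of all reads in each of the 50 cells labelled D1, from the highest to the lowest Dnmt3b. Dnmt3b falls along the axis by construction, Dnmt3a stays above 108 CPM in all 17 Dnmt3b-high cells and Dnmt3l varies widely in each group.

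Of 19 genes listed for placing, copying or removing DNA methylation (Dnmt3b left out of the count of those compared), 13 passed the filter on low values. Their median difference was 0.27, close to the 0.22 of all genes, with 2 at least 2-fold higher (7.63% of all genes), 1 at least 2-fold lower (5.81%) and 10 above 0 (63.5%). Dppa2, whose protein acts with DPPA4 at promoters of developmental genes, was higher by 1.02 (means of 444 and 214 CPM), and 9 Dnmt3b-high cells exceeded every Dnmt3b-low cell. It stood at 0.61 in cells with at least 7500 genes. Its partner Dppa4 differed by 0.23. For the maintenance pair, Uhrf1 differed by 0.76 and Dnmt1 by 0.43, with equal Dnmt1 medians of 60 CPM. Uhrf1 came to 0.05 in cells with at least 7500 genes. Tet1 did not follow Dnmt3b, with means of 456 CPM in each group and a difference of 0.00, and Tet2 stood at -0.35. Dppa3, whose protein shields DNA from maintenance methylation, stood at -1.43, but 1 Dnmt3b-low cell with 2063 genes held 990 CPM of it. Without that cell the difference was 0.33. With at least 7500 genes per cell the list median was 0.34, beside 0.02 for all genes.

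Genes of naive pluripotency were on balance lower in the Dnmt3b-high cells. Of 13 compared, 10 were under 0 (36.1% of all genes) and 4 (Nanog, Dppa3, Fbxo15 and Esrrb) were at least 2-fold lower (5.81% of all genes), with a median of -0.56. Nanog, a core factor of the naive network, ran from 0 to 100 CPM in Dnmt3b-high cells, with a median of 5, and from 0 to 520 CPM in Dnmt3b-low cells, with a median of 25. It was read in 9 of 17 Dnmt3b-high cells (52.9%, exact Clopper-Pearson 95% interval 27.8% to 77%) and in 13 of 17 Dnmt3b-low cells (76.5%, 50.1% to 93.2%). These intervals run over cells of 1 culture and do not compare the groups. The means were 15.6 and 90.3 CPM, a difference of -1.97, with 4 Dnmt3b-low cells above every Dnmt3b-high cell.

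Esrrb, another naive regulator, had means of 32.1 and 77.6 CPM, a difference of -1.06, and it was the same in cells with at least 7500 genes. Without the Dnmt3b-low cell of 2063 genes it stood at -0.78. Zfp42 (Rex1), a marker of the naive state read in all 34 cells, had medians of 255 and 440 CPM and a difference of -0.80. Klf5 stood at -0.91 and Tfcp2l1 at -0.56. Against these, Nr0b1 stood at 0.44 and Fgf4 at 0.01. Restriction to cells with at least 7500 genes gave a list median of -0.72 and Nanog at -2.44, while Fbxo15 stood at -0.32 and Dppa3 turned to 1.43, so 2 of the 4 stayed at least 2-fold lower. With medians over cells in place of means the list median was 0.00. Fbxo15 and Dppa3 were carried by few cells, each with a median of 0 CPM in the Dnmt3b-low cells. Fbxo15 stood at -0.61 without 1 Dnmt3b-low cell in well D05.

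The core pluripotency list gave 2 directions. Its 13 genes had a median difference of 0.40, with 9 above 0, near the 63.5% of all genes, whereas their summed level was lower in Dnmt3b-high cells, with medians of 7330 and 9285 CPM. The sum is carried by Dppa5a, an RNA-binding protein of pluripotent cells, with medians of 2665 and 5900 CPM and a difference of -0.96. Lin28a, an RNA-binding inhibitor of let-7 maturation, was higher by 1.42 and was read in 17 Dnmt3b-high and 9 Dnmt3b-low cells. It stood at 0.70 in cells with at least 7500 genes. Sox2 stood at -0.03. In cells with at least 7500 genes the list median was -0.03. Of 20 genes listed for the formative and primed states 8 passed the filter, with a median of 0.06, under the 0.22 of all genes. Only Dnmt3a was at least 2-fold higher (7.63% of all genes). Sox11 stood at -0.46, but kept that direction in 12 of 21 settings and stood at 1.47 in cells with at least 7500 genes. There the list median was 0.44, beside 0.02 for all genes. By medians over cells it was 1.02, beside 0.48, and it stayed above 0 in 18 of 21 settings. The summed list had medians of 1005 CPM in Dnmt3b-high and 550 CPM in Dnmt3b-low cells. The remaining 12 genes, Otx2, Pou3f1 and Fgf5 among them, were too low to compare.

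Most genes of glycolysis were higher in the Dnmt3b-high cells. Of 14 compared, 12 were above 0 (63.5% of all genes) and 6 were at least 2-fold higher (7.63% of all genes), with a median of 0.97. Ldha, whose product makes lactate from pyruvate, ran from 1040 to 4765 CPM in Dnmt3b-high cells, with a median of 2925, and from 140 to 2595 CPM in Dnmt3b-low cells, with a median of 1000. No Dnmt3b-low cell reached the Dnmt3b-high median, and 9 Dnmt3b-high cells exceeded every Dnmt3b-low cell. The difference was 1.49. Tpi1, the triose phosphate isomerase, differed by 1.12, and 13 Dnmt3b-high cells exceeded every Dnmt3b-low cell.

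Further enzymes at least 2-fold higher were Pgam1 at 1.29, Eno1 at 1.23 and Pgk1 at 1.07, together with Pdk1, a kinase that restrains pyruvate entry into mitochondria, at 1.30. Pkm stood at 0.98 and Gapdh at 0.92. The hexose transporter Slc2a3 and hexokinase Hk2 were the exceptions, at -0.42 and -0.67. Summed over the list, Dnmt3b-high cells held a median of 11530 CPM and Dnmt3b-low cells 4120 CPM. The Spearman correlation of this sum with Dnmt3b was 0.73 over 50 cells and 0.52 over the 37 with at least 7500 genes. In cells with at least 7500 genes the list median was 0.33, beside 0.02 for all genes, and 1 of the 6 genes, Pdk1 at 1.13, stayed at least 2-fold higher. Ldha stood at 0.97, Eno1 at 0.67, Tpi1 at 0.60, Pgam1 at 0.56 and Pgk1 at 0.35. In the same cells Slc2a3 stood at -1.19 and Hk2 at -0.33. Processed copies of Gapdh, Ldha and other glycolytic genes can share reads with them, and the sources used here do not say how such reads were counted.

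Of 29 S phase genes 26 were above 0 (63.5% of all genes), with a median of 0.54. At least 2-fold higher were 2, a share near the 7.63% of all genes. These were Rrm2, a subunit of ribonucleotide reductase, at 1.34 and Ccne1, the gene of cyclin E1, at 1.09. The sum of the list had medians of 8145 CPM in Dnmt3b-high cells and 4375 CPM in Dnmt3b-low cells. With at least 7500 genes per cell the list median came to 0.10, Rrm2 to 0.66 and Ccne1 to 0.29. The 30 genes of G2 and mitosis were divided, with 15 above 0 (63.5% of all genes) and a median of 0.04. Aurkb, Kif11 and Ccnb1 were at least 2-fold higher (7.63% of all genes), at 1.11, 1.04 and 1.01, and Cks2, Mki67, Hmgb2 and Cenpf were at least 2-fold lower (5.81% of all genes), at -1.61, -1.50, -1.27 and -1.05. None of these 7 differences reached 2-fold in cells with at least 7500 genes, where they lay between -0.51 for Mki67 and 0.97 for Kif11.

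Imprinted genes, expressed from 1 parental allele and marked by inherited methylation, had a list median of 0.98 over 9 genes, beside 0.97 for glycolysis. At least 2-fold higher were 4 (7.63% of all genes), Mest, Peg3, Snrpn and Impact, and 1 was at least 2-fold lower (5.81%), Zrsr1 at -1.41. Mest, a paternally expressed hydrolase gene, ran from 60 to 1045 CPM in Dnmt3b-high cells, with a median of 190, and from 0 to 245 CPM in Dnmt3b-low cells, with a median of 70. Its difference was 2.03, with 8 Dnmt3b-high cells above every Dnmt3b-low cell. Peg3 differed by 1.39, Snrpn by 1.07 and Impact by 1.06. The list median was 0.87 in cells with at least 7500 genes, where Mest (1.41) and Zrsr1 (-1.07) stayed at least 2-fold apart and Peg3, Snrpn and Impact stood at 0.87, 0.80 and 0.71. H19 and Igf2 had no read in the 34 cells, so the list is described from the genes these cells express. Across 21 alternative settings the medians of the imprinted, glycolysis and S phase lists stayed above 0, from 0.46 to 1.56, 0.33 to 1.59 and 0.10 to 1.00, and that of the ribosomal list stayed under 0, from -0.89 to -0.30.

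**Figure D3:**
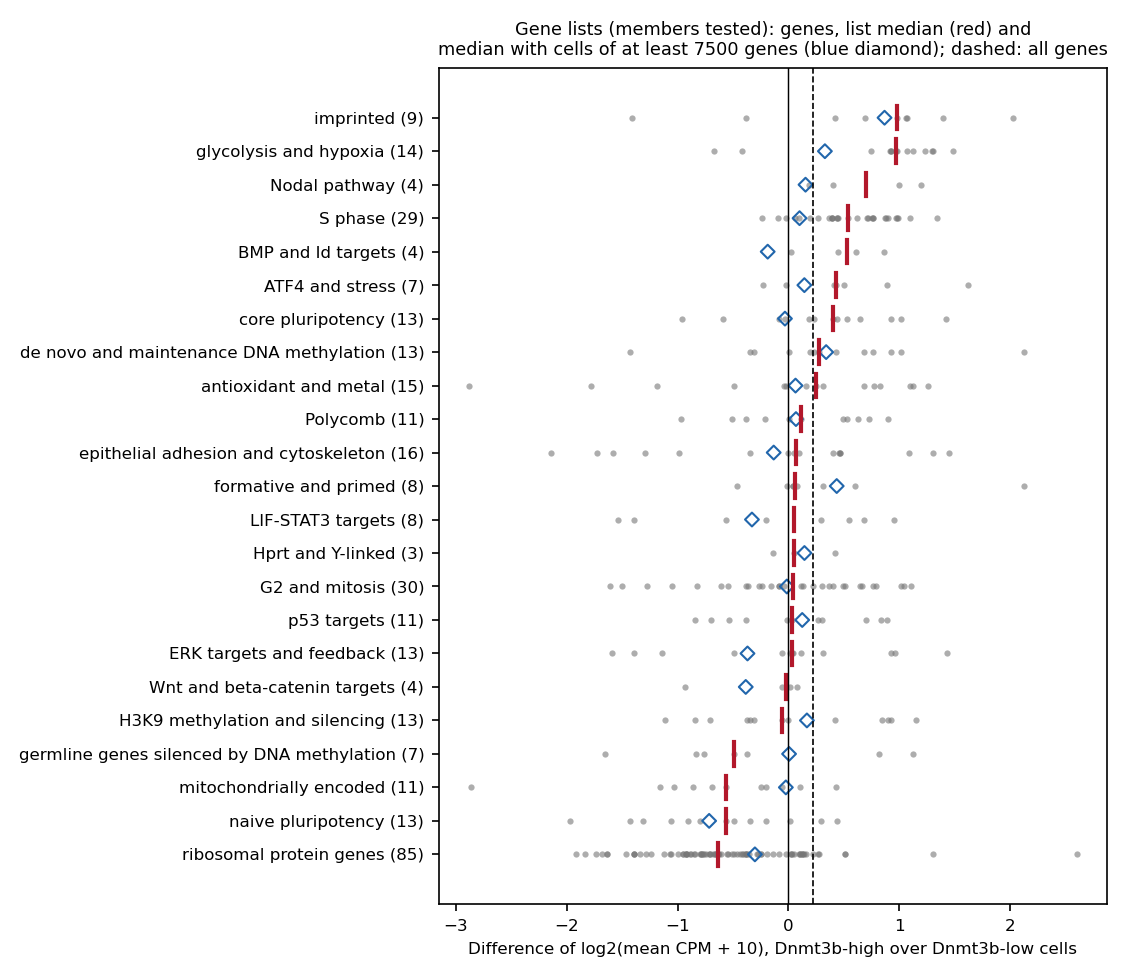
Differences of log2(mean CPM + 10), Dnmt3b-high over Dnmt3b-low cells, for the genes of each list that passed the filter (gray points, number in brackets), with the list median (red bar), the median in cells of at least 7500 genes (blue diamond) and the median of all genes (dashed line, 0.22). Among lists of 8 genes or more, the ribosomal, naive, mitochondrial, imprinted and glycolysis lists lie farthest from the dashed line, and the diamond of the glycolysis list lies at 0.33.

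Ribosomal protein genes were lower in the Dnmt3b-high cells. Of 85 compared, 66 were under 0 (36.1% of all genes) and 17 were at least 2-fold lower (5.81% of all genes), with a median of -0.63. Their sum ran from 55315 to 120685 CPM in Dnmt3b-high cells, with a median of 96610, and from 74160 to 264070 CPM in Dnmt3b-low cells, with a median of 114120. Rps27l, a paralogue of Rps27, had the largest negative difference among them, with medians of 640 and 2915 CPM and a difference of -1.91. Rps28, Rpl35 and Rpl5 followed at -1.84, -1.74 and -1.68. Rps3a2 and Rps3a3, near-identical copies of Rps3a whose reads may be shared, went the other way at 1.30 and 2.60 and are uncertain. In cells with at least 7500 genes the list median was -0.30, and none of the 17 stayed at least 2-fold lower.

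Short transcripts as a class differed in the same direction. Of 460 genes whose longest annotated transcript is under 1000 bases, 21.7% were at least 2-fold lower and 1.30% at least 2-fold higher, with a median of -0.54. Among 3121 genes with transcripts of 3000 bases or more, these shares were 3.81% and 8.81%, with a median of 0.31. Transcript length and detected genes moved with Dnmt3b in these cells, and their part in the ribosomal and other lower genes was not tested.

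Beyond the lists, 12 genes had the largest higher values by mean and median, of which Dnmt3a and Mest are described above. Pim2, a pro-survival kinase, ran from 0 to 495 CPM in Dnmt3b-high cells, with a median of 270, and from 0 to 190 CPM in Dnmt3b-low cells, with a median of 40. No Dnmt3b-low cell reached the Dnmt3b-high median, and the difference was 2.20. Zfyve1, a lipid-binding protein of the endoplasmic reticulum and forming autophagosomes, differed by 2.10. It ran from 10 to 140 CPM, with a median of 60, against 0 to 40 CPM and a median of 0, and 12 Dnmt3b-high cells exceeded every Dnmt3b-low cell.

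Mycn, the gene of the transcription factor N-MYC, ran from 10 to 465 CPM in Dnmt3b-high cells, with a median of 260, and from 0 to 300 CPM in Dnmt3b-low cells, with a median of 20. The means were 248 CPM (231 to 265) and 52.6 CPM (45.2 to 61), and the difference was 2.04. The correlation of Mycn with Dnmt3b was 0.69 over 50 cells and 0.65 over the 37 with at least 7500 genes. Myc itself differed by 0.02.

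H2-K1, a major histocompatibility class I gene whose reads may be shared with its paralogues, differed by 2.28, with medians of 65 and 0 CPM. Slc43a1, an amino acid transporter, differed by 2.22. The other genes named by the rule were Irgm1, an immunity-related GTPase, at 1.87, Atad1, a mitochondrial extraction ATPase, at 1.85, Zfp971 at 1.80, Slc25a12, the mitochondrial aspartate-glutamate carrier, at 1.77 and Pde7a, a cyclic AMP phosphodiesterase, at 1.75. All 12 genes with the largest higher values, Dnmt3a included, stayed at least 2-fold higher in cells with at least 7500 genes, between 1.16 for Atad1 and 1.98 for Irgm1.

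The genes most like Dnmt3b over the 50 cells were Ipo7, Fkbp4, Ldha, Pgam1, Ahcy and Mycn, with Spearman correlations between 0.69 and 0.72, beside a median of 0.18 over all genes. Ahcy, which clears the by-product of methyl transfer from S-adenosylmethionine, had medians of 180 and 20 CPM and a difference of 1.64. The importin Ipo7 differed by 1.66, with 5 Dnmt3b-high cells above every Dnmt3b-low cell. Fkbp4, a co-chaperone of HSP90, had medians of 935 and 280 CPM and a difference of 1.50, which came to 0.90 in cells with at least 7500 genes.

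The largest lower values included Mt2 and S100a6. Mt2, a metallothionein that binds zinc and copper, ran from 45 to 230 CPM in Dnmt3b-high cells, with a median of 95, and from 10 to 4220 CPM in Dnmt3b-low cells, with a median of 520. Its difference of -2.88 was the largest of the genes named by the rule, and 11 Dnmt3b-low cells exceeded every Dnmt3b-high cell. The close paralogue Mt1, with which reads may be shared, stood at -1.78. In cells with at least 7500 genes Mt2 stood at -1.28 and Mt1 at -0.24. S100a6, a calcium-binding protein, had medians of 60 and 390 CPM and a difference of -2.14, and it stayed at -1.92 in those cells.

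The cytoskeleton and adhesion list was divided, with a median of 0.07 over 16 genes, 3 at least 2-fold higher (7.63% of all genes) and 4 at least 2-fold lower (5.81%). S100a11, Lgals1 and Tmsb4x were also at least 2-fold lower, at -1.58, -1.30 and -1.72, whereas E-cadherin (Cdh1), Cldn6 and Actg1 were at least 2-fold higher, at 1.09, 1.45 and 1.30. Tmsb4x, which holds free actin monomers, had medians of 370 and 890 CPM, and 12 Dnmt3b-low cells exceeded every Dnmt3b-high cell. The 15 antioxidant and metal genes had a median of 0.25, near the 0.22 of all genes. Of these, 3 were at least 2-fold higher (7.63% of all genes) and 3 at least 2-fold lower (5.81%), Mt1 and Mt2 included. Prdx6, Nqo1 and Gclm were at least 2-fold higher, at 1.26, 1.12 and 1.10, and Txn1 was at least 2-fold lower at -1.19. Of the genes named from these lists, S100a6, Tmsb4x and Mt2 stayed at least 2-fold apart in cells with at least 7500 genes. The list medians came to -0.13 for cytoskeleton and adhesion and 0.06 for antioxidant and metal genes in those cells, beside 0.02 for all genes.

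The other lower genes named by the rule were Pfdn1 (prefoldin), Thoc7 (messenger RNA export), Ndufa4 and Atpif1 (respiratory chain and ATP synthase), Vps36 (endosomal sorting), Kifap3 (kinesin transport), Zc3h8 and Ankrd49, between -2.04 and -1.82. Ndufa4 ran from 330 to 1045 CPM in Dnmt3b-high cells and from 255 to 10585 CPM in Dnmt3b-low cells. Of the 12 largest lower values, Nanog, S100a6 and Mt2 stayed at least 2-fold lower in cells with at least 7500 genes, and Pfdn1 and Zc3h8 stood at -0.99 and -0.91. That restriction leaves out 9 Dnmt3b-low cells and no Dnmt3b-high cell, so it bears unequally on genes higher and lower in them. Kifap3 came to -0.94 without the Dnmt3b-low cell of 2063 genes. The genes most unlike Dnmt3b were Sem1, Tomm7, Wbp4, Tmsb4x, Bex3 and Rps27l, with correlations between -0.70 and -0.61. Wbp4, a splicing factor, ran from 10 to 80 CPM in Dnmt3b-high cells and from 45 to 410 CPM in Dnmt3b-low cells, and 13 Dnmt3b-low cells exceeded every Dnmt3b-high cell. Bex3 likewise had 13 such cells, with medians of 360 and 790 CPM.

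**Figure D4:**
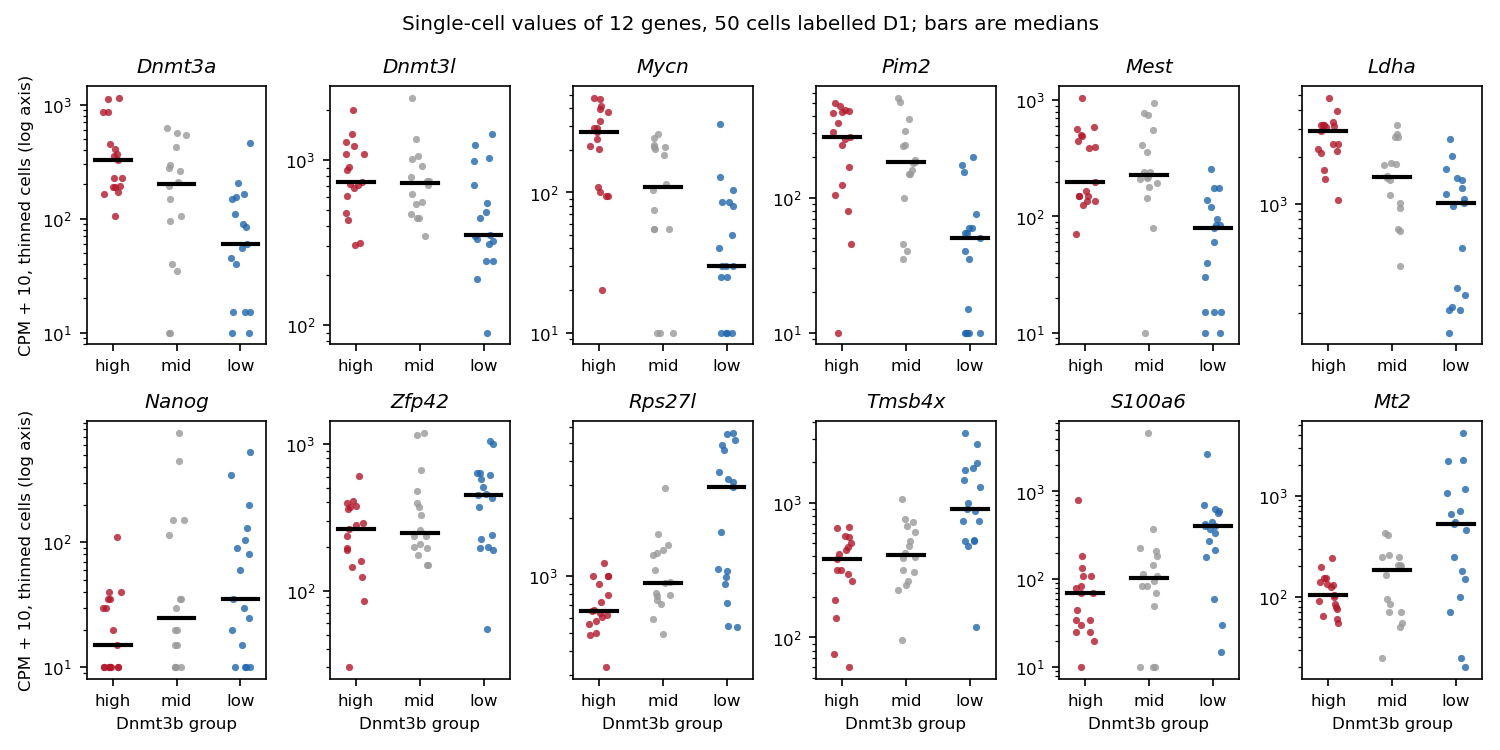
CPM + 10 after thinning (log axis) of 12 genes in the Dnmt3b-high, middle and Dnmt3b-low cells labelled D1, with group medians as bars. Dnmt3a, Mycn, Pim2 and Ldha lie highest in the Dnmt3b-high cells (median 2925 CPM for Ldha against 1000 CPM), and Rps27l, Tmsb4x, S100a6 and Mt2 lie highest in the Dnmt3b-low cells, with overlap in all 12 genes.

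Signalling lists were small or mixed. Dusp6, a phosphatase induced by ERK, was higher by 1.43, while the immediate early genes Ier3, Junb and Egr1 were lower by mean at -1.59, -1.39 and -1.14 with medians of 10 CPM or less in both groups. Without the Dnmt3b-low cell of 2063 genes Ier3 stood at -0.28 and Junb at -0.37, and without 1 Dnmt3b-low cell in well E06 Egr1 stood at -0.32. In cells with at least 7500 genes Dusp6 stood at 0.77, Ier3 at -0.67, Junb at -0.83 and Egr1 at -1.81. The 13 ERK genes had a median of 0.03. Of the Nodal pathway 4 genes were compared, with Skil, a Nodal-SMAD target, at 1.20 and a median of 0.70, which came to 0.15 in cells with at least 7500 genes. The LIF and STAT3 targets had a median of 0.05, p53 targets 0.03, BMP and Id targets 0.53 over 4 genes, Wnt targets -0.02 over 4 genes and ATF4 and stress genes 0.43 over 7 genes. Of the last, the haem oxygenase Hmox1 was at least 2-fold higher (7.63% of all genes) at 1.62. The BMP and Id median came to -0.19 in cells with at least 7500 genes, and without 1 Dnmt3b-low cell in well E03 Id1, Id2 and Id3 moved from 0.61, 0.45 and 0.86 to 1.67, 1.79 and 1.48. With at least 7500 genes per cell Skil stood at 0.69 and Hmox1 at 0.87.

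Chromatin lists also stayed near the middle. Polycomb genes had a median of 0.11, with Ezh2, the H3K27 methyltransferase gene, at -0.97, and H3K9 and silencing genes had a median of -0.06. In the latter Kdm4c, a histone demethylase gene, was at 1.15 and Cbx3, a heterochromatin protein gene, at -1.12. Cbx3 stood at 0.11 in cells with at least 7500 genes. The small medians of the ERK, LIF and STAT3, Wnt, p53, Polycomb and H3K9 lists kept their direction in 13 to 18 of 21 settings. Germline genes silenced by DNA methylation had a median of -0.49 over 7 genes, from -1.65 for Ddx4 to 1.13 for Tex19.1. This median kept its direction in 15 of 21 settings, and it was 1.08 in plate columns 7 to 12 and 0.01 in cells with at least 7500 genes. Ddx4 stood at 0.33 without the Dnmt3b-low cell of 2063 genes. The 11 mitochondrially encoded genes had a median of -0.56, which came to -0.02 with at least 7500 genes per cell.

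The same ranking was made within the other labels, in cells that did not choose these groups. Under D0, in 2i, 30 cells a group had median Dnmt3b of 179 and 8.57 CPM, and under D2, at 48 h, 31 cells a group had 778 and 0 CPM. At least 2-fold higher were 80 genes (1.13%) in D0 and 416 (9%) in D2, and at least 2-fold lower were 114 (1.61%) and 308 (6.67%). Groups differ in size and Dnmt3b range between the labels, and differences between the labels were not tested. Of the list of Hprt and Y-linked genes, 3 passed the filter on low values in D1, against 0 in D0 and 0 in D2. Label and this difference cannot be told apart in the values that follow. Dnmt3a differed by -0.24 in D0, 2.13 in D1 and 1.09 in D2. Dnmt3l differed by 1.63, 0.68 and 0.28. Pim2 stood at 0.03, 2.20 and 2.70, and Mycn at 0.42, 2.04 and 1.04. Mest stood at 0.07, 2.03 and -0.10, and Nanog at 0.04, -1.97 and -0.22.

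Of 22 lists with a median in each label, 10 lay farthest from 0 in D1 and 12 lay farther from 0 in D0 or D2, among them the formative list at 0.52, 0.06 and 0.36 and the DNA methylation list at 0.03, 0.27 and 0.48. For glycolysis the medians were 0.24 in D0, 0.97 in D1 and -0.05 in D2. The imprinted list gave -0.20, 0.98 and 0.27, and the naive list 0.04, -0.56 and -0.27. The S phase list was positive in each label, at 0.18, 0.54 and 0.40, and the ribosomal list negative in each, at -0.09, -0.63 and -0.14. Detected genes again moved with Dnmt3b, with medians of 7919 and 7606.5 in D0 and 4145 and 3816 in D2.

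**Figure D5:**
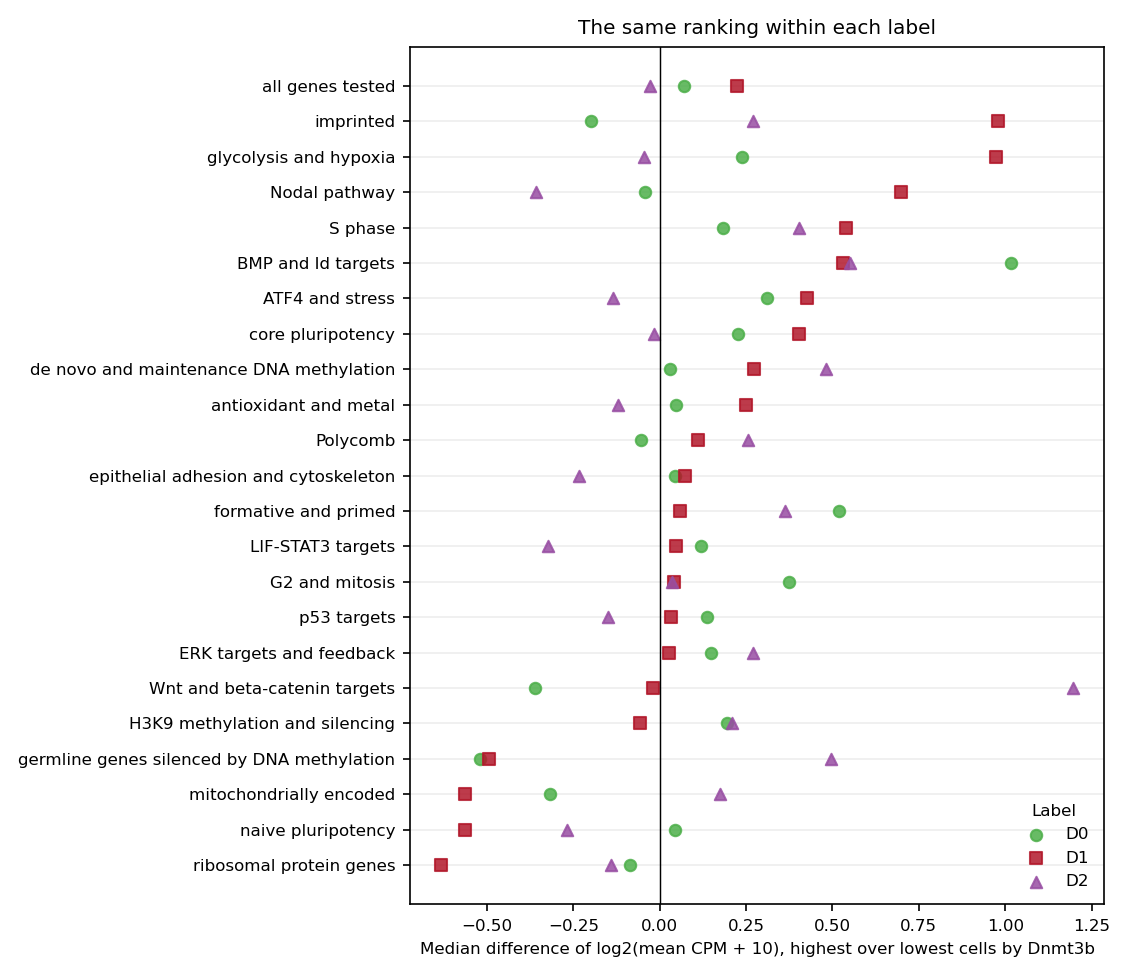
Median difference of log2(mean CPM + 10) between the highest and lowest cells by Dnmt3b within D0 (30 cells a group), D1 (17) and D2 (31), for the 22 gene lists with at least 3 genes compared in D1 and a median in each label, and for all genes tested. D1 (squares) lies farthest from 0 in 10 lists, and D0 or D2 lies farther in 12.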

How the data were processed

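Reads were aligned by the authors to GRCm38 using HISAT2, and the table they deposited gives counts per gene in each of 288 wells. GEO describes the table as filtered and normalized, yet its values are whole, their totals differ between wells and failing wells are present. Reading them as raw counts is therefore inferred from the values. The counting tool and annotation are not given in the sources used here. Only this table was used. Wells were kept with over 200000 reads, over 2000 genes and a mitochondrial share under 15%. CPM are reads over the cell total. Each kept cell was thinned at random to 200000 reads with a fixed seed, and genes were compared that had a mean of at least 20 CPM and a read in at least 25% of the 50 D1 cells, a filter blind to the groups. 4 rows with repeated names were kept apart by position. Differences are of log2(mean CPM + 10). Exact Poisson 95% intervals of means cover counting error only, and exact Clopper-Pearson intervals of shares run over cells of 1 culture.

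Named genes are the 12 largest higher and 12 largest lower values whose medians also differ 2-fold, the 6 genes most like and 6 most unlike Dnmt3b by Spearman correlation, and members of 29 lists. Unnamed gene models were passed over. Members and lists were chosen with earlier results of these data known. Transcript lengths come from GENCODE and promoter bases from RefSeq, both on GRCm38. The comparison was tested on simulated counts whose groups were not made to differ in detected genes or transcript length, so those are not covered. Tools were pandas 2.3.3, numpy 2.4.6 and scipy 1.17.1 under Python 3.11.15, with TMM factors from edgeR 4.0.16. No test was run, because each time point is taken as 1 culture. Alternatives covered thinning, averaging, pseudocount, filter, scaling, group size, ranking, plate side and leaving out cells.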

Additional observations from a re-analysis of the deposited data

How the results depend on the processing

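No paired analysis was possible because the D1 cells are taken as 1 culture and carry no numbers that pair them across groups. The changes below are by construction of each setting or their cause was not tested. Genes at least 2-fold higher and lower numbered 462 and 352 as reported. They were 1723 and 177 by medians over cells, 286 and 170 with unthinned reads summed over cells, 184 and 546 with TMM factors, 188 and 540 with median-of-ratios factors, 1544 and 606 with 10 cells a group, and 140 and 200 with 25. A pseudocount of 1 CPM gave 796 higher, plate columns 7 to 12 gave 944 higher, and only cells with over 1000000 reads gave 228 lower. Restriction to cells with at least 7500 genes, chosen after seeing the data, gave 165 and 83. Leaving out 1 cell at a time gave 398 to 606 higher and 293 to 383 lower.

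Dnmt3a (2.13) kept its direction and stayed at least 2-fold throughout: 2.44 by medians, 1.58 summed, 1.88 with TMM or median-of-ratios factors, 2.57 with 10 cells, 1.51 with 25, 1.64 with over 1000000 reads, 1.89 without the cells under 1000000 reads (added after seeing the data), 1.47 with at least 7500 genes, and 1.97 to 2.51 leaving out 1 cell. Dnmt3l (0.68) gave 1.08 by medians, 0.54 summed, 0.43 with either scaling, 1.08 with 10 cells, 0.86 in columns 1 to 6, 0.55 in columns 7 to 12, 0.032 with at least 7500 genes and 0.56 to 0.84 leaving out 1 cell.

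The settings were run for 263 named or listed genes, and of the 80 of these at least 2-fold apart as reported, 7 changed sign somewhere. Ddx4 gave 1.00 by medians, 0.19 summed, 0.29 with over 1000000 reads, 0.17 in columns 1 to 6, 0.33 without the 1 low cell under 6000 genes (an added setting), -2.02 to 0.33 leaving out 1 cell, 0.33 without cells under 1000000 reads and 0.0056 with at least 7500 genes. Dppa3 gave 0.063 summed, 0.14 with over 1000000 reads, 1.80 in columns 1 to 6, 0.33 without the low cell under 6000 genes, -1.65 to 0.33 leaving out 1 cell, 0.087 without cells under 1000000 reads and 1.43 with at least 7500 genes. Il6st gave 0.057 summed, 0.045 without the low cell under 6000 genes and -1.72 to 0.045 leaving out 1 cell, mt-Rnr2 gave 0.054 summed, Egr1 0.18 with 10 cells, Cbx3 0.11 with at least 7500 genes, and Fbxo15 gave 0.58 by medians, 0.12 with 10 cells and 0.47 in columns 7 to 12. Leaving out 1 cell also took mt-Rnr2 to -0.28 and S100a6 to -2.87 (a Dnmt3b-high cell), and brought Aurkb, Cbx3, Ccnb1, Ccne1, Cdh1, Cenpf, Dppa2, Gclm, Impact, Kif11, mt-Nd2, Pgk1 and Snrpn under 2-fold, between 0.76 and 0.99 where higher and between -0.98 and -0.75 where lower.

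Depth limits low genes: 1 read in a thinned cell is 5 CPM, so a gene with a mean near 20 CPM rests on about 4 reads a cell.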
